A study of Homo sapiens with 4 samples.

Results

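The genes described here are 38 members of the intrinsic and death receptor apoptosis machinery, namely the BCL2 family, the caspases, the inhibitors of apoptosis and the mitochondrial proteins that act with them. A probe was taken as a member where the array lists it under one of these 38 gene names, which gave 65 of the 41000 probes on the array. The members were kept on separate sides, with 11 genes that restrain cell death, 22 that promote it, 3 inflammatory caspases and 2 BCL2 relatives whose direction is not settled. Expression was compared between 2 independent flasks of naive NB4 cells and 2 of an arsenic trioxide (ATO) resistant NB4 line, with 1 array for each flask. NB4 is an established human cell line of acute promyelocytic leukemia (APL), a leukemia that is treated with ATO. The resistant line is a single clone derived in-house, called NB4-VM-AsR1 in the labels and NB4-EV-AsR1 in the methods, and the 2 names were taken for one clone. Both lines were grown in RPMI with fetal bovine serum, the resistant cells without ATO in the week before, so that neither line was under ATO when the RNA was taken and no response to the drug was measured. Of the resistant line, 1 clone says nothing on how other resistant clones would look.

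Proteins of the BCL2 family decide at the mitochondrial outer membrane whether a cell dies. The guardians (BCL2, BCL2L1, BCL2L2, BCL2A1 and MCL1) hold the pore formers BAX and BAK1 in check, and the BH3-only proteins relieve that hold when a cell is stressed or deprived of growth factors. Once the membrane is open, cytochrome c (CYCS) reaches APAF1, which activates CASP9 and through it the executioner caspases, while death receptors activate CASP8 and CASP10 directly. XIAP and its relatives bind caspases or their activators, DIABLO and HTRA2 displace them, and CFLAR resembles CASP8 without its protease activity and blocks it at the receptor. Much of this control acts on the proteins, by binding, cleavage and release, and an array measures only their transcripts.

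The 250 bases before the start site are printed for BMF and CFLAR, which had the largest differences in each direction by the brightest probe of a member, and for CASP4 and CASP5, which are neighbours on chromosome 11 and differed in the same direction. They are RefSeq sequences of GRCh38.p14, printed 5' to 3' on the strand of the gene. CASP4 lies at chr11:104968575-104968824 (minus strand), CASP5 at chr11:105023169-105023418 (minus strand), BMF at chr15:40108880-40109129 (minus strand) and CFLAR at chr2:201118466-201118715 (plus strand). Capitals mark matches, on either strand, to a TATA box (TATAAA), the core of a GC box (GGGCGG), the site of STAT factors (TTCNNNGAA), that of forkhead factors (GTAAACA) or an E-box (CACGTG).
BMF: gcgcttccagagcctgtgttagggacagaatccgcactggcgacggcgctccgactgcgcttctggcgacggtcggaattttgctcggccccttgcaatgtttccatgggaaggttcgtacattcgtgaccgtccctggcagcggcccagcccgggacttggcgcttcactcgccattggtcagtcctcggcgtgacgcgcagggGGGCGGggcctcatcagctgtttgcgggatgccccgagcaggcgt
CFLAR: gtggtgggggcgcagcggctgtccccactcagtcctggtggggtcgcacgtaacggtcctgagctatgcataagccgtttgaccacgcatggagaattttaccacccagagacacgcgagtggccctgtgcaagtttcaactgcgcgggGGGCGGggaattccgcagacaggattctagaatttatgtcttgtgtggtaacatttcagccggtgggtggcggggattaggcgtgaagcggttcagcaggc
CASP4: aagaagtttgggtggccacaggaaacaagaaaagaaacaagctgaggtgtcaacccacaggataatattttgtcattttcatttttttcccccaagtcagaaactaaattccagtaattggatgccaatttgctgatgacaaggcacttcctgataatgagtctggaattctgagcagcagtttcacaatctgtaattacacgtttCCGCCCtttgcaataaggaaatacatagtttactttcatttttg
CASP5: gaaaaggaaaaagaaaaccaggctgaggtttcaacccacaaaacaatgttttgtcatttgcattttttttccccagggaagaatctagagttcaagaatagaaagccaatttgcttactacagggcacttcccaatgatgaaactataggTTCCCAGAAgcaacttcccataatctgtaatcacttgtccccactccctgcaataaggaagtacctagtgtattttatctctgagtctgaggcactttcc
The windows of CASP4 and CASP5 could be aligned over 228 bases, of which 171 were identical, whereas the other pairs among these 4 genes aligned over at most 16 bases. They held 2 and 0 CpG dinucleotides, against 26 in BMF and 17 in CFLAR, and the GC content was 40.4% in CASP5, 58.8% in CFLAR and 65.2% in BMF. The median GC content was 58.0% over all 27305 promoters of this length and 63.6% over the 32 members with an entry. BCL2L2, MCL1, BIRC5, BIK, CASP10 and CASP1 had no entry in the table. GGGCGG was found in the windows of BMF, CFLAR and CASP4, in 19 of 32 member windows (59.4%) and in 42.3% of all. The CASP5 window held TTCNNNGAA, as did those of BCL2A1 and CASP8 and 6.78% of all. TATAAA was found for BCL2A1 and BCL2L1 (11.1% of all), GTAAACA for BCL2L11 (2.98%) and CACGTG for BAX and BBC3 (6.49%). A match of letters is a description of the window and not a binding site.

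The level of a probe is the log2 of its background-subtracted signal minus the 75th percentile of the array, so that 0 stands for the signal at that percentile and a difference of 1 between the lines is 2-fold. Levels were not set against each other between probes, since probes differ in how well they bind. Between 27922 and 28244 probes per array were well above background, among them 62 to 64 of the 65 member probes, and no member probe was saturated. All 4 arrays shared 1 slide and 1 scan, with the naive flasks on the first positions and the resistant flasks on the last, so that line and position cannot be told apart. Of the myeloid markers, all 9 genes on the array were well above background on at least 3 of 4 arrays, and MPO, the myeloperoxidase of promyelocytes, was saturated on all 4, so that its levels do not compare the flasks. The granule proteases varied, with levels of PRTN3 at 3.16 and 0.80 in the naive and 4.43 and 4.32 in the resistant flasks (adjusted p = 0.179 from limma) and of ELANE at -5.74 and -6.56 against -3.66 and -3.66. Of the 30 tested probes for markers of myeloid and other cell types, 2 passed the test below with the higher level in the resistant flasks (AZU1 and ELANE) and 6 with the lower one (3 of KRT18 and 1 each of CD3D, ITGA2B and ANPEP). Of the 32 marker genes on the array, 7, MS4A1, CDH5, CDH1, HBB, AHSP, COL1A1 and COL1A2, were not well above background on any array. The part of these differences in the values of the members was not tested.

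No member of the apoptosis machinery passed the test between naive and ATO resistant NB4 cells. A probe was called where limma gave an adjusted p (Benjamini-Hochberg, over 28221 probes whose signal stood well above background in both flasks of one line or of both lines) under 0.05 and a difference of at least 2-fold. Of the 63 member probes tested, 0 were called, whereas 5.27% of all tested probes were (2.30% upward and 2.97% downward). By the probe of highest mean for each gene, 0 of 38 members were called, against 6.29% of named genes. The methods' t-test with Benjamini-Hochberg adjustment called 0 of all 28221 probes, so its 0 for the members says nothing on them. Of the 63 member probes, 13 had an unadjusted p under 0.05 by limma, which is 20.6% against 19.1% of all probes. All 38 genes had a tested probe, and the probes left out were the second ones of BCL2L1 and HRK. With 2 flasks of each line an exact permutation test of a single gene cannot give a two-sided p below 0.333.

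The absence of a call does not show that the lines were alike. The 95% interval of the difference stayed within 2-fold in both directions for 24 of the 63 member probes (38.1%, against 42.9% of all probes), and the median distance from the difference to either end of its interval was 0.71 on the log2 scale. For the other member probes a 2-fold difference lies within the interval. The flasks of the lines did not overlap, so that both resistant flasks lay on one side of both naive flasks, for 19 member probes with the higher and 17 with the lower level in the resistant flasks. Together these are 57.1% of the member probes, against 52.5% of all probes, of which 24.5% had the higher and 28.0% the lower level. The size of the differences was moderate, with 7 of 63 probes at 2-fold or more (11.1%, against 12.3% of all). All 7 were also without overlap, and 11.7% of all probes met both conditions.

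**Figure D1:**
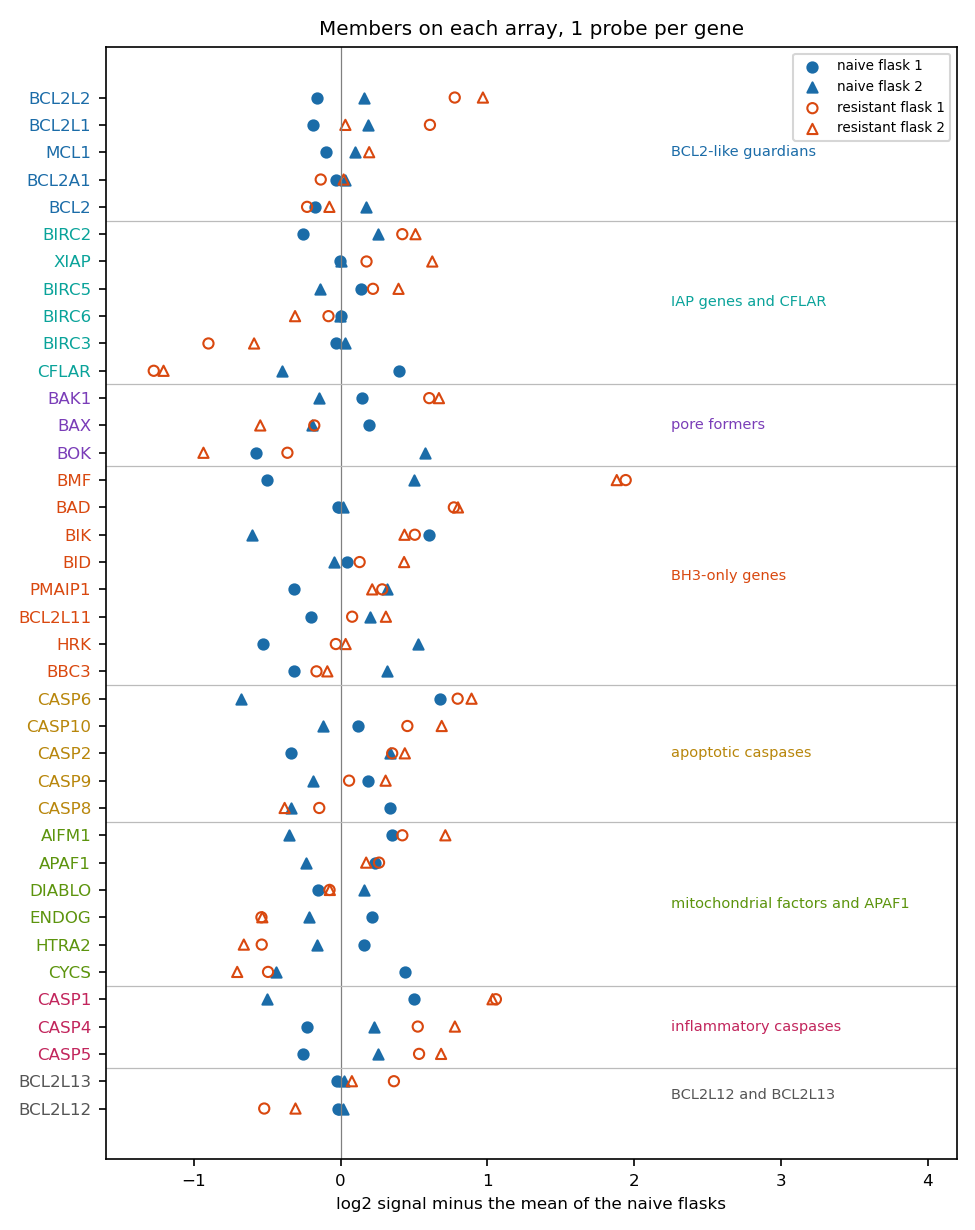
Level of each member on the 4 arrays, on the log2 scale relative to the mean of the naive flasks (x axis), for the probe of each gene with the highest mean level, grouped by role and ordered by the difference (y axis). Filled symbols are naive and open symbols resistant flasks, circles flask 1 and triangles flask 2. BMF stands apart on the right and CFLAR on the left, and for most other genes the 4 flasks lie within 1 unit of each other. MCL1 has 3 symbols because a spot was marked as an outlier.

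**Figure D2:**
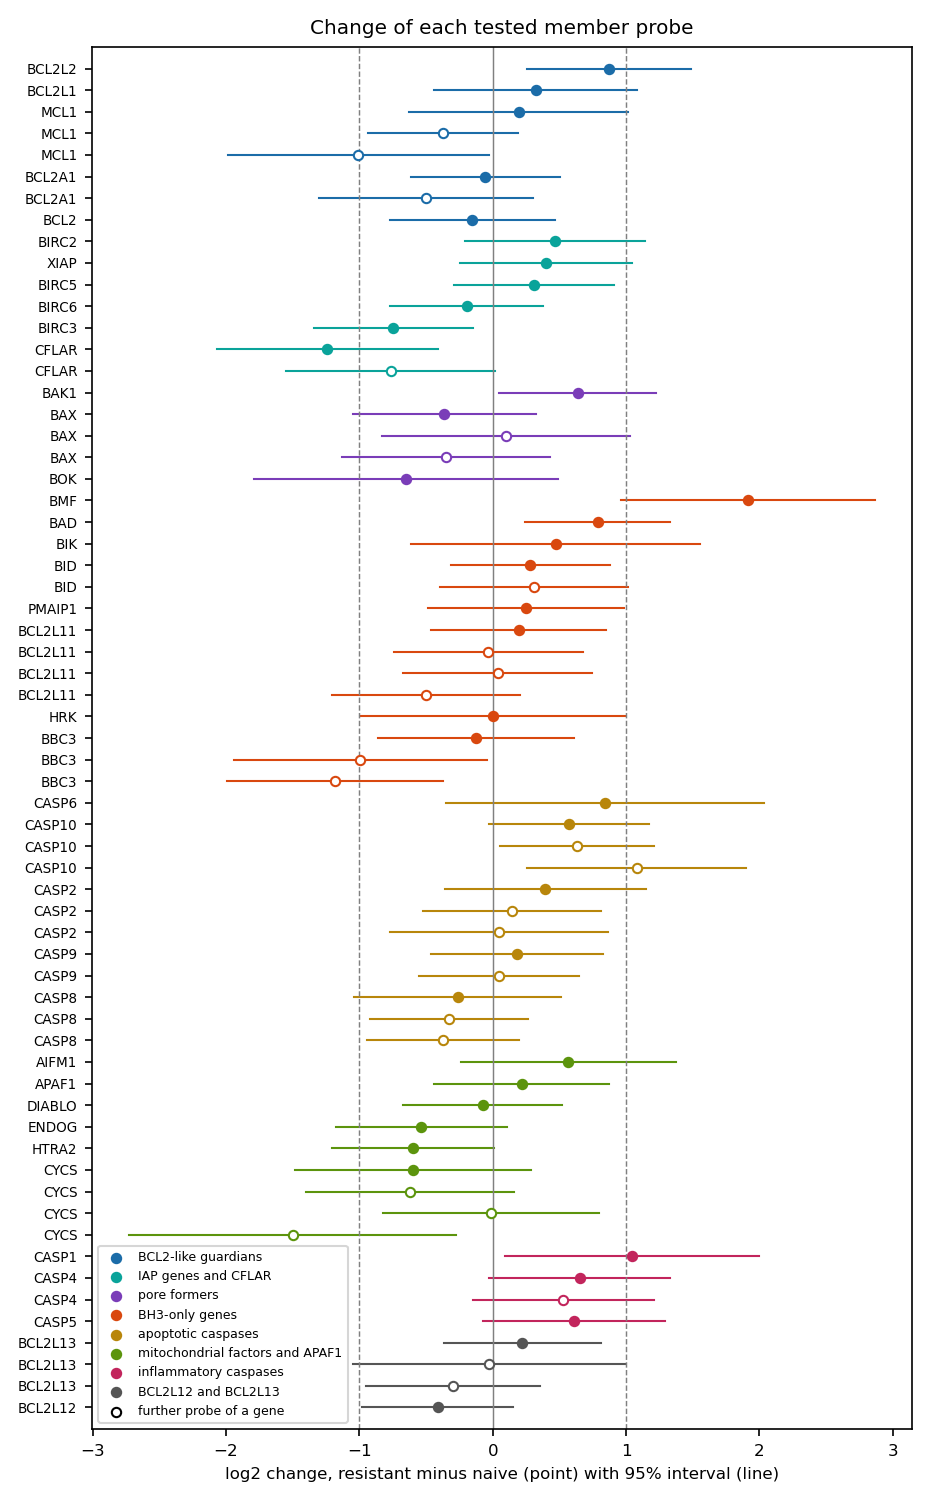
Difference between the lines (x axis, log2, resistant minus naive) for each of the 63 tested member probes (y axis), with its 95% interval from limma. Filled points are the probe with the highest mean level of each gene and open points its further probes, colours give the role, and dashed lines mark 2-fold. Most intervals cross 0 or reach past a dashed line, and 0 of the 63 probes passed the test.

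Among the BCL2-like guardians, the proteins that keep BAX and BAK1 inactive, none was called and BCL2L2 (BCL-W) had the largest difference. Here and below a gene is given by its tested probe with the highest mean level, and the others follow where they differ from it. BCL2L2 had levels of 0.37 and 0.69 in the naive and 1.31 and 1.501 in the resistant flasks. The resistant flasks were both higher, by 0.87 on the log2 scale (standard error 0.24, adjusted p = 0.137 from limma). BCL2, the founding member of the family, had levels of 1.85 and 2.20 in the naive and 1.80 and 1.95 in the resistant flasks. The lines overlapped, and the interval of the difference, -0.77 to 0.46, leaves room for less than 2-fold either way. For the first probe of BCL2A1, a guardian typical of blood cells, the same held. Its levels were 2.48 and 2.55 against 2.38 and 2.54, with an interval of -0.62 to 0.50. By the header the 2 BCL2A1 probes span 71.8 kb, and whether each lies in the gene was not checked. The second had a difference of -0.50 with overlapping lines, and its interval of -1.30 to 0.30 includes a 2-fold lower level. BCL2L1 (BCL-X) had levels of -3.24 and -2.86 against -2.44 and -3.02, and the lines overlapped.

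MCL1, the short-lived guardian on which many myeloid cells depend, was measured by 3 probes that differed in direction. The first had levels of 4.58 and 4.77 in the naive flasks and 4.87 in the second resistant flask, and its spot for the first resistant flask was marked as an outlier and left out of the fit. The difference of 0.20 (interval -0.63 to 1.02) therefore rests on 3 arrays. The second probe had a difference of -0.37 and the third one of -1.01 (interval -1.99 to -0.03, adjusted p = 0.251 from limma), without overlap between the lines. The first probe is at chr1:150547228-150547287 of hg19 and the third at chr1:150550738-150550797.

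Of the inhibitors of apoptosis, CFLAR (c-FLIP) had the largest difference toward a lower level among the brightest probes of the members. Its levels were 2.52 and 1.73 in the naive and 0.85 and 0.92 in the resistant flasks. Both resistant flasks were lower and close together, and the naive flasks were 0.80 apart. The difference was -1.24 (standard error 0.33, interval -2.06 to -0.41), which is 2.36-fold lower in the resistant line, and its adjusted p from limma was 0.121. The probe lies on chromosome 2 at 202000731 to 202000790 of hg19. The second CFLAR probe, at 202025198 to 202025257, had levels of -1.76 and -2.44 against -2.73 and -2.995 and a difference of -0.76 (adjusted p = 0.272 from limma). Both CFLAR probes were thus lower in both resistant flasks, and neither was called.

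The IAP genes with CFLAR split evenly, with XIAP, BIRC2 and BIRC5 higher and BIRC3, BIRC6 and CFLAR lower in both resistant flasks. Over all named genes, 28.4% were higher and 29.0% lower without overlap between the lines. BIRC3 (cIAP2), a ubiquitin ligase of tumor necrosis factor signaling and a known target of NF-kappa-B, had levels of -4.64 and -4.59 against -5.52 and -5.21. Its difference was -0.74 (standard error 0.24, adjusted p = 0.180 from limma). BIRC2 (cIAP1), its close relative and next neighbour on chromosome 11, had levels of -0.23 and 0.28 against 0.45 and 0.54, a difference of 0.47 with an interval of -0.21 to 1.14. The 2 neighbours thus differed in opposite directions, which was not tested as a contrast of its own. XIAP, a direct inhibitor of caspases, had levels of -2.91 and -2.91 against -2.73 and -2.28 and a difference of 0.40. BIRC5 (survivin), a protein of dividing cells, had levels of 5.19 and 4.90 against 5.27 and 5.44, and BIRC6, a very large ubiquitin ligase, 0.24 and 0.23 against 0.15 and -0.08. Their differences were 0.31 and -0.20, with adjusted p-values from limma of 0.538 and 0.688.

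The pore formers did not move together. BAK1, which resides in the mitochondrial membrane, had levels of 1.12 and 0.83 in the naive and 1.58 and 1.65 in the resistant flasks. Both resistant flasks were higher, by 0.64 (interval 0.05 to 1.23, adjusted p = 0.233 from limma). BAX, which moves from the cytosol to the mitochondria, had levels of 2.83 and 2.43 against 2.45 and 2.08, with overlapping lines for each of its 3 probes and differences between -0.36 and 0.10. BOK, a relative less dependent on BH3-only proteins, had levels of -4.04 and -2.88 against -3.82 and -4.39, so that the naive flasks were farther apart than the lines.

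BMF had the largest difference of all 38 members. It encodes a BH3-only protein held at the actin motor complexes and released on loss of attachment, and its probe lies on chromosome 15 at 40380450 to 40380509 of hg19. Its levels were -1.21 and -0.21 in the naive and 1.23 and 1.17 in the resistant flasks. Both resistant flasks were higher by more than 1 unit than either naive flask and 0.06 apart, whereas the naive flasks were 1.00 apart. The difference was 1.91 (standard error 0.38, interval 0.96 to 2.86), which is 3.76-fold higher in the resistant line. Its unadjusted p was 0.00325 and its adjusted p 0.0571 from limma, and the array carries 1 BMF probe.

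Of the other BH3-only genes, BAD, whose protein is kept inactive by phosphorylation under growth factors, was the most even. Its levels were 1.72 and 1.76 in the naive and 2.51 and 2.54 in the resistant flasks. The flasks of a line were at most 0.04 apart and the lines 0.79 apart (interval 0.24 to 1.33, adjusted p = 0.132 from limma). BID, the link from CASP8 to the mitochondria, was higher by 0.28 and 0.31 by its 2 probes, with no overlap for the first. BCL2L11 (BIM) had 4 probes with differences from -0.50 to 0.19, of which 2 overlap in position and are not separate measurements. Levels of its first probe were 1.12 and 1.53 against 1.40 and 1.63, with overlapping lines. PMAIP1 (NOXA) and HRK had differences of 0.25 and 0.00, and in both genes the resistant flasks lay between the naive ones. BIK had levels of 0.18 and -1.02 against 0.09 and 0.02, so that both resistant flasks lay between the naive ones.

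BBC3 (PUMA), a target of p53 and of stress-induced transcription factors, depended on the probe. The first probe had levels of 5.15 and 5.78 in the naive and 5.30 and 5.37 in the resistant flasks, with overlapping lines and a difference of -0.13. The second probe had levels of 3.10 and 4.097 against 2.54 and 2.67, and the third -0.96 and -0.24 against -1.65 and -1.92. By both of these the resistant flasks were lower, by -0.99 and -1.18, with adjusted p-values of 0.245 and 0.129 from limma. The second and the third probe are at 47724174 and 47725087 of chromosome 19 (hg19) and the first at 47731434.

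Of the 5 apoptotic caspases, CASP10, an initiator at death receptors, was higher in both resistant flasks by each of its 3 probes. The first had levels of -0.65 and -0.89 in the naive and -0.31 and -0.08 in the resistant flasks, a difference of 0.57. The second and the third probe had differences of 0.63 and 1.08, the latter from -3.96 and -4.73 to -3.34 and -3.19 (standard error 0.32, adjusted p = 0.162 from limma). CASP8, its neighbour and the main initiator at these receptors, had differences of -0.26, -0.33 and -0.37 by its 3 probes. The lines overlapped for the first, whose levels were 1.90 and 1.23 against 1.42 and 1.18, and not for the others.

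CFLAR, CASP10 and CASP8 follow each other on chromosome 2 without another coding gene between them in the RefSeq order. Within each of these genes all probes lay on one side of 0, above it in CASP10 and below it in CFLAR and CASP8. CASP6, an effector caspase, had levels of 0.73 and -0.63 against 0.84 and 0.94. Its naive flasks were 1.36 apart, the widest gap of the tested member probes, so that a difference of 0.85 had an interval of -0.35 to 2.04. CASP2 and CASP9, the initiator of the apoptosome, had differences of 0.40 and 0.18, with adjusted p-values of 0.530 and 0.746 from limma.

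Among the mitochondrial factors, those with the lower level in both resistant flasks were CYCS, HTRA2 and ENDOG, and AIFM1 was higher. HTRA2 (Omi), a protease that displaces IAP proteins, had levels of 2.54 and 2.22 against 1.85 and 1.72, a difference of -0.60 with an interval of -1.20 to 0.01. ENDOG, a mitochondrial nuclease, had levels of 2.23 and 1.80 against 1.47 and 1.48 and a difference of -0.54. For CYCS 4 probes gave differences of -0.60, -0.62, -0.01 and -1.501, the last from -2.36 and -3.69 to -4.76 and -4.30 (interval -2.73 to -0.28, adjusted p = 0.186 from limma). AIFM1, the apoptosis-inducing factor, had levels of 4.26 and 3.55 against 4.33 and 4.62 and a difference of 0.57 (adjusted p = 0.403 from limma). APAF1 and DIABLO had overlapping lines, with differences of 0.22 and -0.07.

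The inflammatory caspases CASP1, CASP4 and CASP5 were each higher in both resistant flasks, by each of their 4 probes. CASP1 activates interleukin-1 beta and interleukin-18, and CASP4 and CASP5 sense lipopolysaccharide in the cytosol. CASP1 had levels of 1.37 and 0.36 in the naive and 1.92 and 1.90 in the resistant flasks. The resistant flasks were 0.02 apart and the naive flasks 1.01, and the difference of 1.05 (standard error 0.38, interval 0.09 to 2.00) had an adjusted p of 0.226 from limma. Its probe has no position in the file header. CASP4 had levels of 3.38 and 3.84 against 4.14 and 4.39, a difference of 0.65, and its second probe one of 0.53. CASP5 had levels of 1.11 and 1.62 against 1.90 and 2.05, a difference of 0.61 (adjusted p = 0.307 from limma). These 3 genes follow each other on chromosome 11, are related in sequence, and have the similar upstream windows of CASP4 and CASP5 printed above. How far each probe binds transcripts of the other 2 genes was not tested. Over all probes, 24.5% were higher without overlap between the lines.

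BCL2L12 and BCL2L13, whose part in cell death is less settled, had differences in opposite directions. BCL2L12 had levels of 3.56 and 3.60 against 3.06 and 3.27, lower by -0.41, and its naive flasks were 0.04 apart. BCL2L13, next to BID on chromosome 22, was higher by 0.22 by its first probe, and its other probes had differences of -0.03 and -0.30 with overlapping lines.

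Over the 11 genes that restrain death the median difference was 0.20, with 6 genes above and 5 below 0 and a range from -1.24 (CFLAR) to 0.87 (BCL2L2). This median is the value of MCL1 itself, which has the missing spot, and it was -0.15 when the probes of a gene were averaged and -0.06 in the deposited table, which keeps that spot. Over the 22 genes that promote death the median was 0.21, with 14 above and 8 below 0 and a range from -0.65 (BOK) to 1.91 (BMF). The sides had medians of opposite sign in those same settings, with 0.15 for the genes that promote death when probes were averaged and 0.20 in the deposited table, and also with bright local backgrounds reset before normexp (-0.091 and 0.25). Over the 13830 named genes tested the median was 0.00. Of all 38 genes, 16 were higher and 7 lower without overlap, which is 60.5% against 57.4% of named genes (28.4% higher and 29.0% lower). By role the medians ran from -0.36 for the pore formers to 0.65 for the inflammatory caspases, with 0.27 for the BH3-only genes, 0.40 for the apoptotic caspases and -0.30 for the mitochondrial factors with APAF1.

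The naive flasks differed from each other more than the resistant flasks did, for the members as for the whole array. For 47 of the 62 member probes measured on all arrays the gap between the naive flasks was the larger one, with medians of 0.43 and 0.17. Over all probes these medians were 0.39 and 0.18. For 31 of the 63 member probes (49.2%, against 54.1% of all) the naive flasks were farther apart than the lines. By role, the second naive flask was the higher one for 6 of 8 BH3-only genes (median 0.52) and 5 of 5 BCL2-like guardians (median 0.32). It was the higher one for 3 of 6 IAP genes with CFLAR. Among the BH3-only genes the gaps were 1.00 in BMF, 1.06 in HRK, 0.63 in BBC3 and 0.63 in PMAIP1, against -1.21 in BIK and -0.08 in BID. That flask was the lower one for 4 of 5 apoptotic caspases (median -0.37) and for 5 of 6 mitochondrial factors (median -0.45). Among these were gaps of -1.36 in CASP6, -0.87 in CYCS and -0.70 in AIFM1. Over all named genes the second flask was the higher one in 7224 of 13830. Both flasks carry the same label, so these gaps are a description of 2 samples without a test.

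**Figure D3:**
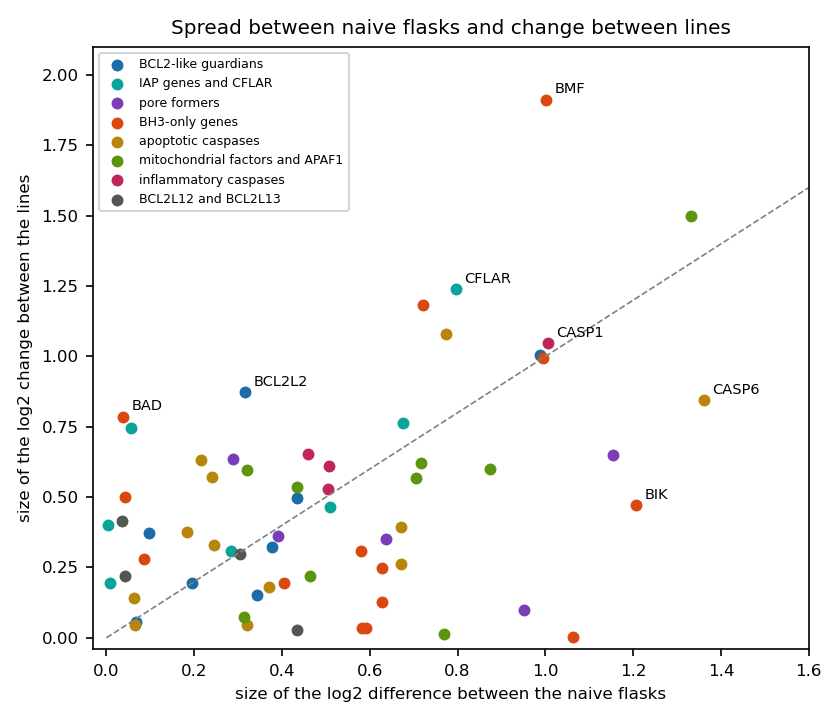
Size of the difference between the lines (y axis, log2) against the size of the gap between the 2 naive flasks (x axis, log2), 1 point for each tested member probe, coloured by role. On the dashed line both are equal. For the 31 probes below it the naive flasks differed more from each other than the lines did, BIK and CASP6 among them, and BMF lies far above it.

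With several probes, a gene could be checked against itself. Of the 14 members with more than 1 tested probe, 10 had all of them on one side of 0, and the difference between the highest and the lowest probe had a median of 0.47. It was largest in CYCS (1.49), MCL1 (1.20) and BBC3 (1.06) and smallest in BID (0.03), CASP8 (0.11) and CASP4 (0.12). The other 24 members, BMF, CASP1 and BCL2L2 among them, rest on a single tested probe.

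In the wider pathway 3 of 62 tested probes from a list of 44 further genes were called, against 5.27% of all tested probes. BCL2L10 (BCL-B), a guardian outside the list of members, was lower. Its levels were 0.87 and 0.83 in the naive and -6.51 and -5.75 in the resistant flasks, where it was well above background in only 1 of 2, and the difference was -6.98 (standard error 0.32, adjusted p = 0.000869 from limma). The difference was -3.51 after normexp (adjusted p = 0.553 from limma) and -4.49 with bright local backgrounds reset before it. IL18, the cytokine that CASP1 matures, had levels of -7.47 and -8.25 against -3.32 and -3.34. It was not well above background in either naive flask, and its adjusted p from limma was 0.00245. As a bound, each naive level was set to the lowest signal well above background on the array, or the probe's own where higher. Against it the resistant line was 7.63-fold higher. That bound holds for the background subtraction used here, and the log2 difference was 1.07 after normexp (adjusted p = 1 from limma) and 1.27 with bright local backgrounds reset before it (adjusted p = 0.0148 from limma). NLRC4, an inflammasome sensor that recruits CASP1, rose from -2.51 and -2.77 to -1.001 and -0.97, a difference of 1.65 (standard error 0.23, adjusted p = 0.0197 from limma). The inflammasome adaptor PYCARD had a difference of 0.09, and the sensor NLRP3 one of -0.83 (adjusted p = 0.142 from limma). The sensor NLRP1 had 1.03 and 0.90 by its 2 probes (adjusted p-values 0.103 and 0.108 from limma). IL1B, the gene of interleukin-1 beta, and GSDMD had overlapping lines, with differences of 0.67 and 0.03 (adjusted p-values 0.560 and 0.970 from limma).

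Of the death receptor arm (11 probes), the BAG cochaperones (9), the p53 arm (11), the mitochondrial channel VDAC (6) and the remaining IAP genes (4), 0 probes were called. The share over all tested probes was 5.27%, and groups this small can hold 0 calls at that share. FADD, the adaptor that joins CASP8 and CASP10 to the receptors, had differences of -0.59 and -0.97 by its 2 probes, neither of them called (adjusted p-values 0.238 and 0.229 from limma). TNFRSF10B, a receptor for the ligand TRAIL, had 0.91 and 1.06 by its 2 probes, also not called (adjusted p-values 0.399 and 0.108 from limma).

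The 3 members with at least 2-fold and no overlap by their main probe, BMF, CFLAR and CASP1, kept their direction in all 17 alternative settings but gained a call in some. BMF was called in 6 of them and ranged from 1.41 to 2.41, with adjusted p-values between 0.000639 and 0.864 from limma or the methods' t-test. Those were an intensity trend in limma, a shift to the median, scale normalization, normexp once bright local backgrounds were reset, and either naive flask left out. CASP1 was called without the first naive flask (1.55, adjusted p = 0.00407 from limma) and was 0.54 without the second. CFLAR was called without the second naive flask (-1.64, adjusted p = 0.00289 from limma) and was -0.84 without the first. Leaving out a naive flask takes the spread from the resistant pair alone, which is the closer one. More probes were then called over the whole array as well as among the members.

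**Figure D4:**
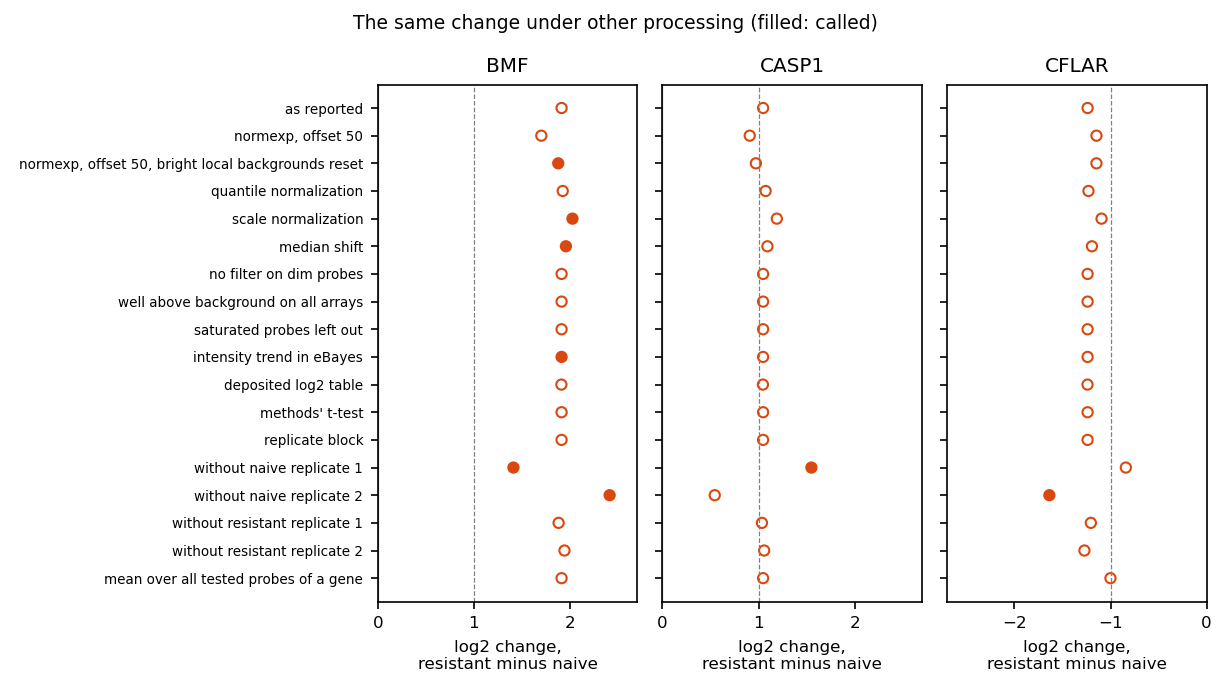
Difference between the lines (x axis, log2, resistant minus naive) of BMF, CASP1 and CFLAR as reported and under each alternative (y axis). Filled points were called by an adjusted p under 0.05 and at least 2-fold, and dashed lines mark 2-fold. The points move mainly when one of the naive flasks is left out.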

How the data were processed

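Labeled RNA from 2 flasks of naive and 2 of resistant cells, grown independently, was put on Agilent 1-colour arrays. The authors deposited the Feature Extraction 10.5.1.1 output, whose processed signal is a background-subtracted intensity on a linear scale, and log2 values that they had centred on the 75th percentile. An array holds 45015 spots, 1639 of them controls. Control and outlier spots were removed, repeated spots averaged, and log2 intensity minus the 75th percentile was used (r with the deposited log2 table at least 0.9998). Arrays have no read depth, and their number limits the precision.

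limma 3.58.1 (lmFit, eBayes) in R 4.3.3 gave the test between the lines, adjusted over 28221 probes. The members and lists were chosen with earlier results of these data known. Named in full are members with a called probe, or with at least 2-fold and no overlap by their probe of highest mean, and called genes of the wider pathway. PYCARD, NLRP3, NLRP1, IL1B, GSDMD, FADD and TNFRSF10B were chosen after their values were seen. A named gene has a listed name that is a symbol or synonym in the RefSeq table. Promoter windows were aligned with Biopython 1.88 (match 1, mismatch -1, gap -5 and -1, free ends). Positions of probes are from the headers (hg19). Some items of the wider pathway are not reported here. The test was also run on simulated data, with means from these arrays and a spread per probe drawn from the limma fit. That spread was the same in both lines, so the wider gap between the naive flasks was not simulated. Alternatives were other background corrections, normalizations, filters and thresholds, an intensity trend, the deposited table, the methods' t-test, the replicate number as a block and each flask left out.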

Additional observations from a re-analysis of the deposited data

How the results depend on the processing

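The count of member probes called, 0 as reported, was also 0 after normexp with an offset of 50 (2 at an unadjusted p under 0.05 by limma), after quantile normalization, with dim probes kept, with only probes seen on all arrays, without saturated probes, with the deposited table, by the methods' t-test and with no minimum difference. It was 1 (BMF) once bright local backgrounds were reset before normexp, after scale normalization, after a shift to the median and with an intensity trend, and 7 at 2-fold with no test. Leaving out 1 flask gave 0 to 8. Over the whole array 1487 probes were called, against 0 after normexp (929 at an unadjusted p under 0.05 by limma), 0 by the methods' t-test (4158 at an unadjusted p under 0.05), 760 with only probes seen on all arrays and 3463 at 2-fold with no test. Leaving out 1 flask gave 728 to 4536, namely 3733 or 4536 without the first or second naive flask and 743 or 728 without a resistant one. The lone flask is then assumed to vary like the pair.

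The median of the genes that restrain death, 0.20, became -0.091 with bright local backgrounds reset, -0.058 in the deposited table and -0.15 when probes were averaged. It was 0.37 after scale normalization, 0.033 and 0.048 without the first or second resistant flask, and 0.098 and 0.17 without the first or second naive flask. That of the genes that promote death, 0.21, became 0.25 with bright local backgrounds reset, 0.33 after scale normalization, 0.25 after a shift to the median and 0.15 when probes were averaged, and ranged from 0.066 to 0.26 when a flask was left out. The cause was not tested. All probes together shifted by 0.10 in the median after scale normalization and by 0.15 after normexp. With the replicate number as a block 0 member probes and 1375 probes in all were called, and the medians were 0.098 and 0.21. Flasks of the same number had deviations that correlated at 0.119, over 2 pairs, too few to show a pairing. A slide block was not run, since there is 1 slide. BCL2L10 and IL18 were called in 14 of 16 alternatives and NLRC4 in 13 of 17.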
